A study of Gallus gallus with 300 samples.

Results

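Supporting cells of the chicken utricle were split into cells with and without transcripts of HINTW, a gene of the female-specific W chromosome, and the 2 sides were compared across all genes within plates. The utricle is a balance organ of the inner ear, and supporting cells are the non-sensory cells that surround its mechanosensory hair cells. A cell of plates 4, 5 and 6 was taken with at least 1000 genes and at least 50000 counts. It was called a supporting cell when the mean log2(CPM + 1) of GJB6, GJB2, SLC1A3, OTOGL and JAG1 was at or above that of the hair cell genes OTOF, CHRNA10, TMPRSS3, LRTOMT and CLIC5, where CPM are counts per 1000000 counts of the cell. Cells with HINTW at 10 CPM or more are called female-like and the others male-like. The members were thus chosen by measured values, the sides by HINTW and the class by the 10 genes just named. The rule found 67 of the 300 cells, with 30, 22 and 15 on plates 4, 5 and 6. Of these, 36 were female-like (16, 10 and 10 on the 3 plates) and 31 male-like (14, 12 and 5).

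All cells shared 1 genotype, wild type, 1 age, posthatch day 7, and 1 tissue, the sensory epithelium peeled off the stroma. Several epithelia were pooled in each experiment and single viable cells were sorted into wells, so cells of different animals could share a plate. The labels give a plate and a well for each cell and name no animal, sex or sort batch. Each side is therefore 1 sample with no replicate animals, no test was run, and no spread between animals is known for any difference below. Values are means over the cells of a side on a plate, averaged over the 3 plates with equal weight, ± SD over plates (n = 3 plates).

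In birds, males carry a pair of Z chromosomes and females a single Z with a W. Genes of the Z chromosome are known in chicken for incomplete dosage compensation, so that many remain at a higher level in males. HINTW belongs to the histidine triad family and is a multicopy gene of the W, with a relative on the Z, HINT1Z. Several other W genes also keep a partner on the Z, called a gametolog, whose sequence can be so close that reads are shared between both.

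The values that set the sides were far apart. HINTW in female-like supporting cells ran from 60.6 CPM through a median of 576 CPM to 2082 CPM, and the next lowest female-like cell stood at 102.97 CPM. Of the male-like cells, 30 had HINTW at 0 and 1, on plate 6, had 2.72 CPM, which was 1 count. The plate means of female-like cells were 767, 672 and 636 CPM on plates 4, 5 and 6. These values chose the sides and are given as a description. All 27 supporting cells kept on plates 2 and 3, and the 34 and 38 hair cells kept there, had HINTW at 34.9 CPM or more, so those plates had no male-like side.

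The bounds on cell class and depth were met less evenly. The lowest margins of the supporting score over the hair score were 0.62 and 1.37 log2 units, followed by 4.34, and the cells nearest to the bound on the hair side were at -0.28 and -1.87. The kept cell with the fewest genes had 1007 and the removed cell with the most had 992. The filter removed 17 cells from plates 4 to 6. The lowest total on these plates was 66490 counts, so no cell was removed on counts alone.

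Of the 67 cells, 3 stood apart, all male-like. The plate 4 cell with the margin of 0.62 held hair cell genes beside supporting cell genes, with 6130 CPM summed over the hair genes of the rule (3 of 5 detected) and 4087 CPM over the supporting genes. The plate 4 cell with the margin of 1.37 had 113.96 CPM of the supporting genes of the rule (1 of 5 detected) and 21745 CPM of immune markers (6 of 6 detected), of which CD74, the invariant chain of antigen presentation, made 16363 CPM. The next highest immune sum among the 67 cells was 2337 CPM. The plate 6 cell with 1 HINTW count also carried ATP5A1W at 1772 CPM (651 counts) and HNRNPKL at 84.4 CPM, both named for the W chromosome or placed on it, and it had the lowest Z-linked share of all male-like cells, 3.04%. Its call as male-like therefore goes against these values of the same cell. HINT1Z went the other way, at 323.8 CPM in this cell. That was the male-like median of plate 6, where the female-like median was 0.

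The 14 supporting cell markers that the rule did not use were present on both sides, with summed medians of 21081 CPM in female-like and 19434 CPM in male-like cells. The genes of the rule chose the cells and are given as a description. GJB6, a connexin of supporting cell gap junctions, had a median of 23395 CPM in female-like and 23455 CPM in male-like cells. The 5 supporting genes of the rule summed to a median of 29989 CPM in female-like and 33822 CPM in male-like cells. The 5 hair genes of the rule were at 0 in 29 of 36 female-like and 26 of 31 male-like cells. Stromal markers were at 0 in 34 and 29 cells, endothelial markers in 27 and 25, immune markers in 26 and 23, glial markers in 22 and 21, melanocyte markers in 30 and 23, neuronal markers in 19 and 19, and dark cell markers in 24 and 19. Totals ran from 96533 to 723247 counts (median 357836) in female-like and from 73746 to 735098 (median 338723) in male-like cells. Median genes per cell were 1754 and 1605, or 1529.5 and 1510 after thinning each cell to 50000 counts. The sides were less even by plate. After thinning, the medians on plates 4, 5 and 6 were 1806.5, 1894 and 1155 in female-like cells. In male-like cells they were 1951, 1381 and 1645, so male-like cells had fewer genes on plate 5 and more on plates 4 and 6. On plate 5 the male-like cells were shallower, with a median of 145212 counts against 324948. Intervals on shares of cells below are exact binomial 95% intervals and cover only the number of cells.

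Several other genes of the W chromosome were detected mainly in female-like cells, but not all of them. Of the 22 W-linked genes other than HINTW, 20 were summed after NEDD4L and LOC112531967, which were detected on both sides, had been set aside with their values seen. At least 1 of the 20 reached 10 CPM in 30 of 36 female-like cells (83.3%, 67.2 to 93.6%) and in 1 of 31 male-like cells (3.23%, 0.0816 to 16.7%), the plate 6 cell described above. The summed level of the 20 genes had a median of 402 CPM and a highest value of 2828 CPM in female-like cells. In male-like cells the median was 0 and the highest value 92.5 CPM. With NEDD4L and LOC112531967 included, the counts were 33 of 36 and 13 of 31 cells. On plates 2 and 3, 23 of 27 supporting cells had at least 1 of the 20 genes.

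Genes with 10 CPM or more in 5 or more of the 67 cells, 6503 in number, are called measured. The log2 ratio is of female-like over male-like mean CPM after adding 1 CPM to each, so that ratios of low genes come out too small. A gene is past the fold when this ratio is at least 1, or at most -1, with the same sign on each of the 3 plates. Over all measured genes, 591 were past the fold and higher in female-like cells (9.09%) and 463 were lower (7.12%). Of the 8 measured W-linked genes other than HINTW, 4 were past the fold and higher (50%), and 0 were lower. Of these 8 genes, 5 were detected in 0 male-like cells and so were measured only through female-like cells, and their share is not read against that of all genes.

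LOC107049046 was the most widely detected of the other W-linked genes. It averaged 124.2, 158.9 and 255.6 CPM in the female-like cells of plates 4, 5 and 6, and it reached 10 CPM in 18 of 36 female-like cells and in 0 of 31 male-like cells, whose highest value was 8.61 CPM. SPIN1W, the W copy of the spindlin gene for a histone reader, had plate means of 95.2, 5.86 and 18.1 CPM in female-like cells, with 10 cells detected against 0. HNRNPKL, a relative of the RNA-binding protein gene HNRNPK, had 243.7, 9.59 and 40.8 CPM, and was detected in 10 cells against 1. LOC107055485 had 3.71, 24.8 and 53.5 CPM, detected in 8 cells against 0. These 4 genes were the ones past the fold.

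The other 4 measured W-linked genes did not meet the same-sign rule. NIPBLL, named after a cohesin loader, was detected in 8 female-like and 0 male-like cells but was at 0 on both sides of plate 6. LOC107049174 was likewise at 0 on both sides of plate 6 and was detected in 5 cells against 0. A floor of 3 counts over all male-like cells together was 0.292 CPM. Against it, the level over all female-like cells together was 157.3-fold higher for NIPBLL and 75.7-fold higher for LOC107055485. Both genes were measured only through female-like cells. The floor takes reads as independent, which PCR reads are not, so the folds are not firm lower bounds. NEDD4L, a ubiquitin ligase gene, was detected in 5 female-like and 6 male-like cells, and LOC112531967 in 13 and 8. Both were thus present in cells without HINTW although the annotation used here places them on the W. CHDB1, the W copy of the chromatin remodeller gene CHD1, was detected in 4 female-like and 0 male-like cells, too few to be measured.

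TERAL2, a gene that could not be placed on any chromosome, was present on the female-like side and at 0 on the male-like side. Its plate means in female-like cells were 198.9, 44.6 and 147.3 CPM. It was detected in 14 of 36 female-like supporting cells and in 17 of 27 on plates 2 and 3, and in hair cells of plates 4 to 6 in 75.4% of female-like and 0% of male-like cells. Against the same floor it was 419-fold higher in female-like supporting cells, with the same limits. MIER3L (6 cells against 0) and ZFRL1 (5 against 0) also had no placement and were at 0 in all male-like supporting cells.

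**Figure D1:**
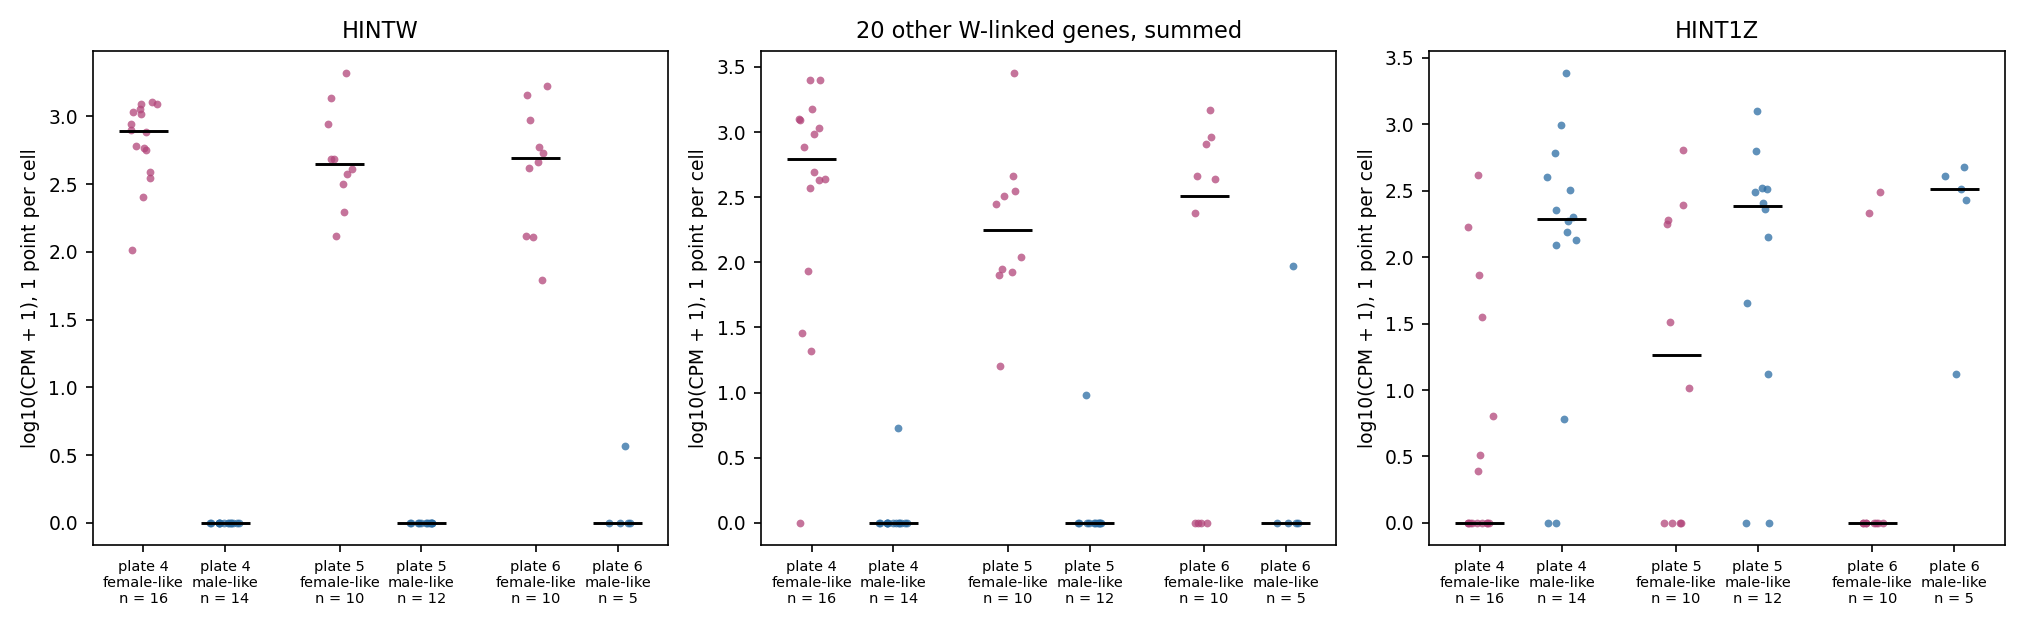
HINTW, the sum of 20 other W-linked genes, and HINT1Z in each supporting cell, as log10(CPM + 1), by plate and side; each point is a cell and each bar the median. Female-like cells sit above 60.6 CPM for HINTW, 1 male-like cell of plate 6 reached 92.5 CPM in the W-linked sum, and HINT1Z was mostly higher in male-like cells with overlap on each plate.

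Detection on the female-like side alone was not limited to W-linked genes. In all, 71 of the 6503 measured genes were detected in at least 5 female-like and 0 male-like cells, and so were measured only through female-like cells. Of them, 57 were autosomal, out of 5932 measured, and 1 was Z-linked, out of 311. The others were 6 W-linked genes including HINTW and 7 unplaced ones. In the male-like hair cells of the same plates, 47 of the 57 autosomal genes were detected in at least 1 cell, against 0 of the 5 W-linked genes other than HINTW. The same share over all autosomal genes was not computed. HINTW itself had to be under 10 CPM there by the rule. In the other direction, 13 of the 6503 genes were detected in at least 5 male-like and 0 female-like cells, of which 8 were autosomal and 3 Z-linked. The sides were unequal, with 36 female-like and 31 male-like cells, and the male-like cells of plate 5 were shallower.

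HINT1Z, the Z-linked relative of HINTW and a nucleotide hydrolase gene, was higher in male-like cells. Its plate means were 43.5, 129.3 and 52.7 CPM in female-like cells and 413, 294.3 and 298.4 CPM in male-like cells of plates 4, 5 and 6. The median female-like cell was at 0 and the highest at 642 CPM, while male-like cells ran from 0 through a median of 229.8 CPM to 2427 CPM. It was detected in 11 of 36 female-like and 26 of 31 male-like cells. The means were 75.2 ± 47.1 and 335 ± 67.4 CPM, a log2 ratio of -2.14, with -3.22, -1.18 and -2.48 on the 3 plates. Levels of single cells overlapped on every plate, but no plate mean of 1 side reached the other. The sum of HINTW and HINT1Z, which holds the gene that set the sides, was 767 ± 67.8 CPM in female-like and 335 ± 67.2 CPM in male-like cells. Among the other pairs, the sum of both copies had log2 ratios of -2.28 for SMAD2W and SMAD2Z, -1.14 for UBE2R2L and UBE2R2, -0.81 for SPIN1W and SPIN1Z and -0.76 for ATP5A1W and ATP5A1Z. It was 0.67 for CHDB1 and CHD1Z and 0.50 for HNRNPKL and HNRNPK. The SMAD2 and ATP5A1 sums were lower on every plate, and the ATP5A1 sum includes the plate 6 male-like cell with ATP5A1W at 1772 CPM. The SPIN1, UBE2R2, CHD1 and HNRNPK sums changed sign between plates, so their averages give no common direction. How reads were divided between the gametologs was not tested.

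Of the 6 other measured Z-linked members of pairs, 3 were lower on every plate and 0 were higher, beside 19.6% and 5.79% of all measured Z-linked genes. SMAD2Z, a transducer of TGF-beta and activin signals, averaged 28.5, 118.5 and 48.5 CPM in female-like and 335, 277.1 and 718 CPM in male-like cells, a log2 ratio of -2.75. It was detected in 4 of 36 and 11 of 31 cells, and the median cell of either side was at 0. ATP5A1Z, for the alpha subunit of ATP synthase, was at 594 ± 344 and 987 ± 273.2 CPM, a log2 ratio of -0.73 with the same sign on each plate. UBE2R2, for a ubiquitin-conjugating enzyme, was at 47.99 ± 53.97 and 136.2 ± 68.7 CPM, a log2 ratio of -1.49. HNRNPK itself did not differ in this way, with 248.2 ± 180 and 238.1 ± 100 CPM and opposite signs among plates. SPIN1Z and CHD1Z, each in at most 6 cells of a side, changed sign between plates, as did SMAD7, which was too sparse to be measured. ATP5A1W was detected in 4 female-like cells and in the 1 male-like cell of plate 6 with a HINTW count. Its log2 ratio was -1.06 with that cell and 5.84 without it. SMAD2W was detected in 3 female-like and 0 male-like cells.

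A broader list of genes with a W gametolog had 19 measured members, 17 of them Z-linked, with a median log2 ratio of -1.11. Of these 19 genes, 8 were lower on every plate (42.1%) and 1 was higher. Over all measured genes, 10.4% were lower and 12.2% higher on every plate. As 17 of the 19 were Z-linked, the closer comparison is with all measured Z-linked genes, of which 19.6% were lower and 5.79% higher. Among the 30 most widely detected Z-linked genes, described below, 13 were lower (43.3%) and 0 higher. Whether genes with a W gametolog differ from other Z-linked genes was not tested.

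Cells of the male-like side carried a larger share of Z-linked counts. The share was taken per cell over the counts of all genes placed on a chromosome. Its plate medians were 3.42, 3.34 and 3.34% in female-like cells and 4.77, 4.88 and 4.34% in male-like cells of plates 4, 5 and 6. Female-like cells ran from 1.84 to 5.24% and male-like cells from 3.04 to 6.00%. The mean of plate medians was 3.37 ± 0.048% and 4.67 ± 0.283%, and the ratio of female-like to male-like medians was 0.718, 0.685 and 0.769 on the 3 plates (mean 0.724 ± 0.042).

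The ranges of the sides overlapped on every plate. Of the female-like cells, 35 of 36 were under the male-like median of their plate, and 29 of 31 male-like cells were over the female-like median. Without the plate 6 cell with a HINTW count the mean ratio was 0.712, and without both plate 4 cells of low margin it was 0.724. SLC1A3, the glutamate transporter gene that the class rule used, took 5.85% of all Z-linked counts, and without it the ratio was 0.704 ± 0.016. Supporting cells of plates 2 and 3 had medians of 3.71 and 3.69%, between the sides of plates 4 to 6 and nearer to the female-like one.

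**Figure D2:**
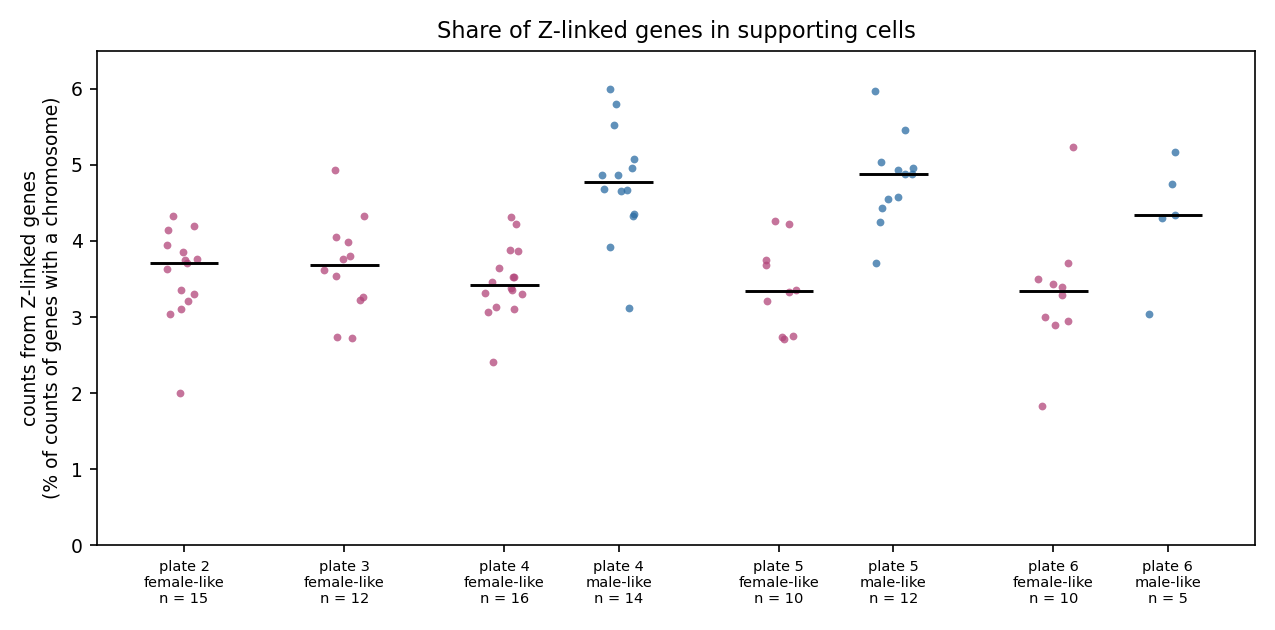
Share of counts from Z-linked genes (percent of counts of genes with a chromosome) in each supporting cell, by plate and side; points are cells and bars are medians. The male-like medians of plates 4 to 6, at 4.77, 4.88 and 4.34%, lie above the female-like medians of all 5 plates, which run from 3.34 to 3.71%.

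The lower Z-linked level in female-like cells was spread over many genes. Over 311 measured Z-linked genes the median log2 ratio was -0.50, a ratio of 0.706, against -0.013 over 5932 autosomal genes. The Z-linked medians on plates 4, 5 and 6 were -0.48, -0.47 and 0. The ratio was below 0 for 66.6% of Z-linked and 50.4% of autosomal genes. Medians of the 27 autosomes with at least 50 measured genes ran from -0.32 to 0.35, so the Z lay below each of them over the plates together. Chromosome 34, with 43 measured genes, was at -0.44 with 69.8% of its genes below 0. The order did not hold on every plate. On plate 5 chromosome 19 was at -0.474 and the Z at -0.472, and on plate 6 the Z median was 0. Past the fold and lower in female-like cells were 45 Z-linked genes (14.5%) and 397 autosomal genes (6.69%). Past the fold and higher were 12 Z-linked genes (3.86%) and 540 autosomal genes (9.1%).

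Plate 6 had the fewest cells, 5 male-like and 10 female-like. Among genes detected in at least 50% of the 67 cells, the medians of 30 Z-linked genes were -0.83, -0.64 and -0.57 on the 3 plates, and those of 636 autosomal genes -0.11, -0.045 and 0.096. Of the 30 Z-linked genes, 13 were lower on every plate (43.3%) and 0 higher. Of the 636 autosomal genes, 94 were lower (14.8%) and 83 higher (13.1%). When Z-linked genes were put in the order of the chromosome and divided into 5 runs of neighbouring genes, the median log2 ratios were -0.61, -0.75, -0.34, -0.52 and -0.43, all below the autosomal median. With both plate 4 cells of low margin left out the Z-linked median was -0.48, and without the plate 6 cell with a HINTW count it was -0.52.

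**Figure D3:**
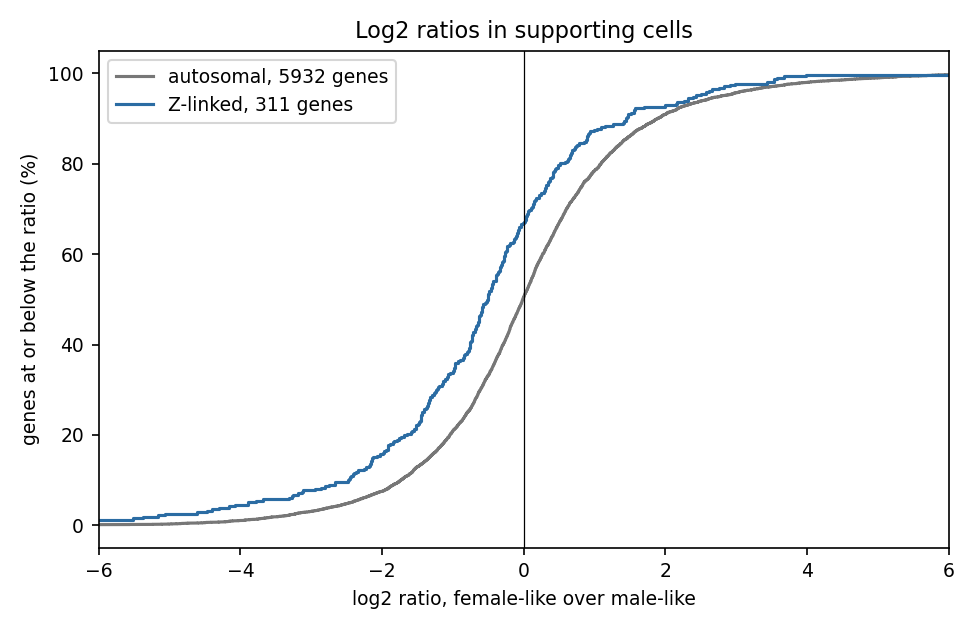
Cumulative share of measured genes (percent) at or below each log2 ratio of female-like over male-like supporting cells, for 5932 autosomal and 311 Z-linked genes. The Z-linked curve lies to the left, with its median at -0.50 against -0.013.

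The Z-linked genes with the lowest ratios, among those that 50% or more of the female-like or of the male-like cells had at 10 CPM, were led by HINT1Z. Of the 3 measured Z-linked genes of oxidative phosphorylation, 1 was lower on every plate (33.3%) and 0 were higher, beside 19.6% and 5.79% of all measured Z-linked genes. COX7C, a subunit of cytochrome c oxidase, averaged 94.9, 113.8 and 141.2 CPM in female-like and 529, 158.2 and 249.01 CPM in male-like cells of plates 4, 5 and 6, a log2 ratio of -1.41. On plate 4 a single male-like cell at 4966 CPM made up most of the male-like mean, and the medians there were 50.03 and 175.8 CPM. Without both plate 4 cells of low margin the ratio was -0.78, which is no longer past the fold. ATP5I, a small subunit of ATP synthase, had a log2 ratio of -1.35 but was level on plate 5 (0.071). TOMM5, of the import pore of the outer mitochondrial membrane, was detected in 15 of 36 female-like and 25 of 31 male-like cells, at 111.6 ± 69.4 and 261.5 ± 30.8 CPM.

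RPL17, a protein of the large ribosomal subunit, averaged 193.04, 150.1 and 205.9 CPM in female-like and 619, 302 and 429 CPM in male-like cells, and its log2 ratios were -1.68, -1.01 and -1.05. The median female-like cell had 132.2 CPM and the median male-like cell 381 CPM, with ranges that overlapped from 0 up. RPS6, of the small ribosomal subunit and a target of growth signalling, averaged 337, 367 and 739 CPM against 1184, 941 and 1101 CPM, a log2 ratio of -1.16. Its medians were 347 CPM in female-like and 971 CPM in male-like cells. The other Z-linked ribosomal protein genes, RPL37 at -0.65 and RPS23 at -0.31, were also lower on every plate.

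ARHGEF28, an exchange factor for the GTPase RhoA, was at 273.5 ± 58.9 CPM in female-like and 649 ± 139.2 CPM in male-like cells, with log2 ratios of -1.11, -1.25 and -1.37. On plate 6, however, the median male-like cell was at 0 and 1 of 5 cells held nearly all of the signal at 2853 CPM. Among cells with at least 1500 genes and 100000 counts the ratio turned to 0.32. TMEM167A, of the secretory pathway, had a log2 ratio of -1.08 that was close to 0 on plate 4 (-0.026). TMED7, a cargo receptor of the same pathway, was at -0.89, and TXN, the redox protein thioredoxin, at -0.78, both lower on every plate. For TXN, 1 male-like cell of plate 4 at 8682 CPM held 35.6% of the male-like sum. The TXN medians on that plate were 385 CPM in female-like and 425 CPM in male-like cells. Without both plate 4 cells of low margin the TXN ratio was -0.33. FGF10, a ligand of FGF receptors with known roles in inner ear development, had -1.29 over the plates but 1.79 on plate 6, and IQGAP2, a cytoskeletal scaffold, was lower only on plate 6 (-2.77).

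Under the same bound of 50% of a side, the 3 Z-linked genes with the highest ratios did not reach the fold. NREP, CDO1 and CTSV had log2 ratios of 0.43, 0.34 and 0.32, and each changed sign between plates. CDO1, for cysteine dioxygenase, averaged 1236 ± 205.1 CPM in female-like and 976 ± 218.96 CPM in male-like cells. CTSV, a lysosomal protease, averaged 1347 ± 374 and 1079 ± 446 CPM. SLC1A3 had 2375 ± 1132 and 2597 ± 560 CPM, a log2 ratio of -0.13.

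**Figure D4:**
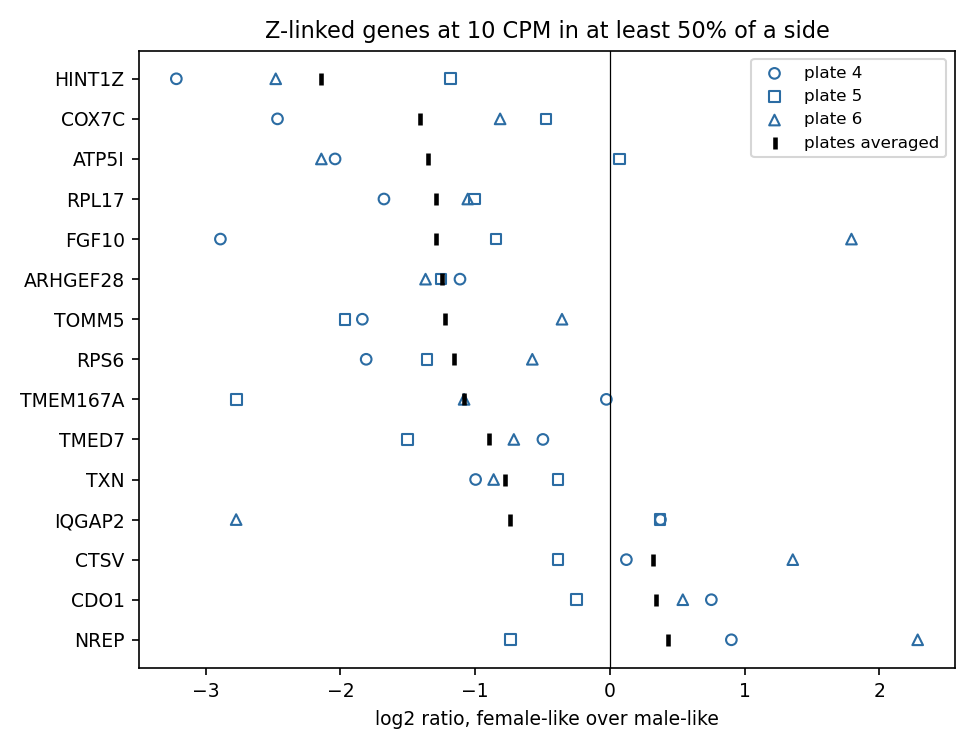
Log2 ratios of female-like over male-like supporting cells for the 12 lowest and 3 highest Z-linked genes among those at 10 CPM in 50% or more of the cells on either side; open symbols are plates 4 to 6 and the black tick is the ratio of plate averages. HINT1Z is lowest of these at -2.14, and NREP, CDO1 and CTSV have plates on both sides of 0.

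Of 67 autosomal ribosomal protein genes, all measured, 20 were lower on every plate (29.9%) and 3 higher (4.48%), with a median log2 ratio of -0.20. Their medians on plates 4, 5 and 6 were -0.66, -0.22 and -0.046. Past the fold and lower were 2 of the 67 (2.99%), against 6.69% of all autosomal genes. Over all autosomal genes, 9.98% were lower and 12.3% higher on every plate. All 4 Z-linked ones were lower on every plate, with a median of -0.91, and the difference from the autosomal ones was not tested. RPS10 and RPS13 had autosomal ratios of -1.22 and -1.02, both past the fold. RPS13 was no longer past the fold without both plate 4 cells of low margin (-0.85) or without the plate 6 cell with a HINTW count (-0.95). RPL7A was at -0.99 and lower on every plate. RPL23 was higher on every plate, at 199.6 ± 103.9 CPM against 105.7 ± 16.7 CPM. Summed over the autosomal genes, female-like cells had a median of 21193 CPM and male-like cells 26999 CPM.

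Nuclear genes of oxidative phosphorylation had members in both directions. Of 65 measured autosomal members, 12 were lower on every plate (18.5%) and 5 higher (7.69%), with a median of -0.17. The shares over all autosomal genes were 9.98% lower and 12.3% higher. The list medians on plates 4, 5 and 6 were -0.84, 0.32 and -0.063. NDUFB7, of respiratory complex I, was at 17.2 ± 2.55 CPM in female-like and 58.7 ± 21.2 CPM in male-like cells, a log2 ratio of -1.71. On plate 4 its highest male-like cell was at 530 CPM and the next at 103.3 CPM. ATP5G2, of the membrane ring of ATP synthase, was at 130.9 ± 42.9 and 339 ± 31.8 CPM. NDUFV2, also of complex I, went the other way at 1.32, with a ratio of 0.11 on plate 4. With both plate 4 cells of low margin left out, NDUFB7, ATP5G2 and NDUFV2 were at -1.42, -1.28 and 1.67. Summed levels had medians of 10878 and 11350 CPM. The highest female-like cell stood at 36765 CPM and the highest male-like cell at 90582 CPM.

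Lists of supporting cell identity are read against the 10.4% lower and 12.2% higher on every plate over all measured genes. Of 14 supporting cell markers outside the rule, 1 was higher and 2 were lower on every plate, 0 were past the fold, and the median was -0.13. SOX10, a transcription factor of otic and glial cells, was at 157.7 ± 103.2 and 293.9 ± 76.96 CPM and lower on every plate. Of 12 measured Notch pathway genes other than JAG1, a gene of the class rule, 1 was higher and 0 were lower on every plate, with a median of -0.22. The 1 higher was the ligand gene JAG2, past the fold at 2.32. HES5, a Notch target, was at 5724 ± 5024 and 3363 ± 675 CPM, and 1 female-like cell at 50596 CPM held 27.3% of the female-like sum. Of 12 otolithic membrane and matrix genes outside the rule, 1 was lower and 0 were higher on every plate. The 1 lower was TNC, for the matrix protein tenascin C, past the fold at -3.77. Of 8 gap junction and ion transport genes outside the rule, 2 were lower and 0 higher, and SLC4A4, a bicarbonate transporter gene, was past the fold at -1.94. JAG2, TNC and SLC4A4 were named after their values were seen, and their levels and numbers of cells are not given here. TNC was detected in under 30% of the male-like cells, so it is not among the lowest genes named below. KCNJ16, a potassium channel gene, was at 318 ± 169.1 and 562 ± 200.6 CPM.

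Signalling lists contained members in both directions. Of 14 Wnt genes, 5 were lower (35.7%) and 2 higher (14.3%) on every plate, beside 10.4% and 12.2% of all measured genes. WNT5A, a secreted ligand, was at 64.8 ± 38.7 CPM in female-like and 226.6 ± 61.6 CPM in male-like cells, and FRZB, a secreted Wnt antagonist, at 467 ± 143.3 and 680 ± 186.6 CPM. CTNNB1, for beta-catenin, was past the fold in the other direction at 570 ± 328 and 168.8 ± 88.8 CPM. Its plate means were 855, 211.3 and 645 CPM in female-like and 252.96, 177.4 and 75.9 CPM in male-like cells. Of 12 FGF and BMP genes, 3 were lower and 3 higher on every plate (25% each). FGFR1, an FGF receptor, was at 54.9 ± 42.8 and 267.9 ± 63.5 CPM, with 12 and 10 cells detected. DUSP6, a target of FGF signalling, was at 115.9 ± 91.7 and 47.01 ± 37.1 CPM.

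Of 19 immediate early and stress genes, 2 were higher (10.5%) and 0 lower on every plate, with a median of 0.16, and the share over all measured genes was 12.2% higher. SOD2, a mitochondrial superoxide dismutase, was at 325 ± 97.4 and 142.02 ± 59.9 CPM, and GADD45A, a growth arrest gene, at 25.5 ± 11.9 and 11.1 ± 3.61 CPM. Of 9 cell cycle genes, 2 were higher (22.2%) and 1 was lower (11.1%) on every plate. Of 5 measured sex hormone receptor and steroid genes, 0 had the same sign on every plate.

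Hair cell markers outside the rule were rarely measured in these cells. CALB2, the calcium buffer calretinin, was at 13.4 ± 5.49 CPM in female-like and 112.8 ± 109.1 CPM in male-like cells, and 1 male-like cell at 2582 CPM held 60.2% of the male-like sum. Without both low-margin cells its log2 ratio was -1.95 in place of -2.99. OCM, oncomodulin, was at 31.3 ± 11.9 and 68.2 ± 38.9 CPM. USH1C, harmonin of the hair bundle, was higher in female-like cells, at 1097 ± 141.2 and 682 ± 229.8 CPM.

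Among genes not placed on Z or W, those with the largest ratios were low and sparse. TERAL2, AKR1B10L4 and CCDC88C among them have no placement, so their chromosome is not known. By rule, the 12 highest and 12 lowest genes past the fold were taken, given detection in 30% or more of the cells on whichever side was higher. For each of the 12 highest the median cell was at 0 on both sides, and male-like means were at most 23.1 CPM. ANXA4 (chromosome 22), an annexin that binds membranes with calcium, was at 126.97 ± 71.3 CPM in 12 female-like cells and 2.31 ± 2.17 CPM in 2 male-like cells. IRF8 (chromosome 11), an interferon regulatory factor, was at 121.8 ± 76.7 and 4.09 ± 3.24 CPM, with 35.8% of the female-like sum in 1 cell. The others were TERAL2, LOC101747821, MKL2, PXK, ASB5, HELZ, BIVM, IMPAD1, UBE2J1 and TRA2A, with log2 ratios from 7.04 to 3.23.

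The lowest was AKR1B10L4, of the aldo-keto reductase family and without a chromosome in the annotation. Its plate means were 12.01, 4.30 and 2.83 CPM in female-like and 36.4, 44.6 and 218.3 CPM in male-like cells, a log2 ratio of -3.77. It was detected in 5 of 36 and 12 of 31 cells. CCDC88C, which encodes Daple and was also unplaced, was at 34.4 ± 23.99 and 266.4 ± 136.7 CPM, and EXOC7 (chromosome 18), of the exocyst, at 40.9 ± 11.9 and 221.2 ± 46.6 CPM. PHF20L1, SDK1, SLC35E3, TENM4, FUNDC2, STARD5, CALB2, SLC1A4 and TMEM63C made up the 12, with log2 ratios from -3.54 to -2.62.

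Hair cells of the same plates, 61 female-like and 49 male-like, were set beside the supporting cells. The Z-linked median log2 ratio was -0.55 over 413 genes measured in hair cells and -0.50 over 311 in supporting cells. The ratio of Z-linked shares was 0.684 ± 0.034 in hair cells and 0.724 ± 0.042 in supporting cells. By plate it was 0.719, 0.652 and 0.680 in hair cells against 0.718, 0.685 and 0.769, so the classes were nearly equal on plate 4 and the supporting cell ratio was higher on plates 5 and 6. SLC1A3, a gene of the class rule, is counted in these shares. Without it the ratios were 0.719, 0.705 and 0.688 in supporting cells and 0.719, 0.652 and 0.680 in hair cells. The classes were then close on plate 6 as well. This class difference was not tested. At least 1 of the 20 W-linked genes was detected in 61 of 61 female-like and 3 of 49 male-like hair cells. For all 22 genes, with NEDD4L and LOC112531967, the counts were 61 of 61 and 33 of 49.

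Of the 45 Z-linked genes past the fold and lower in supporting cells, 42 were measured in hair cells, where 15 were lower on every plate (35.7%) and 31 had a ratio below 0 (73.8%). This was close to the share over all Z-linked genes measured in both, 35.1% and 72.8%. Over everything measured in hair cells, 32.7% of Z-linked and 13.3% of autosomal genes were lower on every plate. Of the 397 autosomal genes past the fold and lower, 367 were measured in hair cells, with 13.4% lower on every plate and 51.2% below 0. HINT1Z, COX7C, RPL17 and TOMM5 had hair cell ratios of -1.19, -1.39, -1.0004 and -1.35, each lower on every plate. The rest of the 12 lowest Z-linked genes were so too, except ARHGEF28 and TMED7. These were at -0.044 and 0.30 in hair cells and changed sign between plates.

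Of the 12 highest genes not placed on Z or W, 11 were measured in hair cells, all with a ratio above 0, and 2 of them, TERAL2 and BIVM, were higher on every plate (18.2%). BIVM was close to level on plates 4 and 5, with hair cell ratios of 0.031, 0.12 and 2.29 on plates 4, 5 and 6. It was detected in 19.7% of female-like and 22.4% of male-like hair cells. Of all genes measured in hair cells, 12.8% were higher and 14.3% lower on every plate, and 49.9% had a ratio below 0. Of the 12 lowest, all were measured in hair cells, and 3 had a ratio below 0. AKR1B10L4 was the 1 gene of these that was lower on every plate in hair cells, at -5.34, -3.13 and -3.41. SLC35E3, TENM4 and STARD5 were higher on every plate there. SLC35E3 was sparse, detected in 4.92% of female-like and 4.08% of male-like hair cells, at 18.01 and 1.22 CPM. TENM4 was low, at 21.8 and 9.12 CPM, detected in 21.3% and 14.3%.

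**Figure D5:**
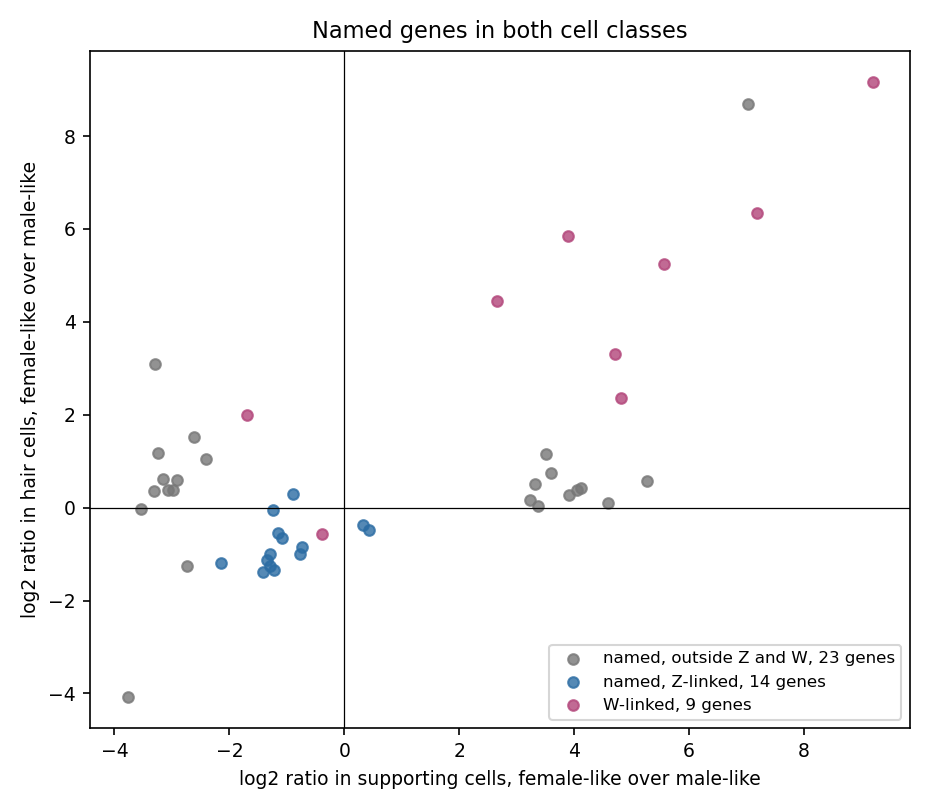
Log2 ratios of female-like over male-like cells in supporting cells (horizontal) and hair cells (vertical) for the named genes measured in both; grey points are named genes outside Z and W, blue points Z-linked and red points W-linked. TERAL2 stands among the W-linked genes at the upper right and AKR1B10L4 at the lower left, at -3.77 and -4.08.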

How the data were processed

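Smart-Seq2 libraries of single sorted cells were sequenced as full-length cDNA primed with oligo-dT and amplified by PCR without molecular identifiers, per the labels' protocols. The deposited values are expected counts, estimated counts per gene made by the authors with STAR and RSEM, per the submitters' processing notes, which also name FastQC. Versions, genome build and annotation: not given in the sources used here. Of the values, 0.823% were not whole. Each file has 13643 gene rows, and 12 symbols on 2 rows were summed, which left 13631 symbols. No pair of the 300 cells had identical values, and the joined table of the series held the same values as the cell files.

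CPM were computed from each cell's own total, without rounding except for thinning. No count model was fitted, since the labels name no animal and each side is 1 sample. Cells were sorted singly and no doublet caller was run. Chromosomes came from RefSeq's annotation of assembly GRCg7b by symbol (12272) or synonym (262). Of the symbols 12534 were placed, 586 on the Z and 23 on the W. The files name no build, so placements may differ from the authors' annotation, and gametologs of near-identical sequence can share reads. No mitochondrially encoded gene was matched.

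Genes were named by a rule: among those not placed on Z or W, the 12 highest and 12 lowest past the fold with detection in at least 30% of the higher side. On the Z they were the 12 lowest and 3 highest with detection in at least 50% of a side. W-linked genes, their partners and 2 to 4 members per list were added. The members, lists and rule were chosen with earlier results of these data known. The procedure was tested on simulated data. Known folds were given there only to genes above a mean level, without plate or animal differences. Folds of genes present in few cells were thus not covered. Settings varied were pseudocount, scaling, averaging, filters, HINTW bound, class margin, depth, plates and fold. Python 3.11.15, numpy 2.4.6, pandas 2.3.3 and scipy 1.17.1 were used. Intervals cover only the number of cells. PCR reads are not independent molecules, so read counts carry further error that is not shown.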

Additional observations from a re-analysis of the deposited data

Results flagged for a closer look

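The values of single cells and of plates were searched for a highest or lowest value far from the rest of its group. Groups of more than 10 values were not searched, so the single cells of plate 4 and the male-like cells of plate 5 were left out. In 24 groups of 5 or 10 values, 6 were found. The bounds used give about 1 in 20 for independent, normal values. Values with many zeros, and several values of the same cell, do not meet this, so the number found is not read against chance. HINTW also set the sides. Among the 10 female-like supporting cells of plate 5, the same cell stood apart with 2828 CPM summed over the 20 W-linked genes and with HINT1Z at 642 CPM. This cell also had the highest HINTW of all female-like supporting cells, 2082 CPM, and their lowest total, 96533 counts. Among the 5 male-like cells of plate 6, the same cell stood apart with HINTW at 2.72 CPM and a W-linked sum of 92.5 CPM. Over the 5 plates, the female-like plate median of HINTW was farthest from the others on plate 4, at 782 CPM, and that of HINT1Z on plate 5, at 20.4 CPM.

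Of the named genes, 4 had 1 direction on every plate in supporting cells and the opposite one on every plate in hair cells. They were SLC35E3 at a log2 ratio of -3.30, TENM4 at -3.24, STARD5 at -3.07 and RPL23 at 0.91 in supporting cells. Their hair cell ratios were 3.10, 1.17, 0.38 and -0.41. That of SLC35E3 rests on few cells, with detection in 4.92% of female-like and 4.08% of male-like hair cells. The difference between the classes was not tested.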

How the results depend on the processing

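Ratios, medians, counts past the fold and named genes were recomputed under 19 other settings, 12 of which bear on the Z-linked share and 16 on the medians; detection counts were not. The ratio of Z-linked shares stayed between 0.701 and 0.75 and the Z-linked median log2 ratio between -0.55 and -0.26. With 1 plate left out, a gene needs the same sign on 2 plates only, and 1316 to 1909 genes were past the fold, 689 to 973 higher and 627 to 936 lower, with 48 to 81 Z-linked lower and 22 to 32 Z-linked higher. The W-linked median was then 1.47 to 4.89 and the autosomal median 0.0034 to 0.036. With detection required in 20% of cells, fewer genes were tested and 397 were past the fold against 1054 as reported, 220 of them higher, with 22 Z-linked lower and 1 higher; as a share of genes tested, 7.87% were higher and 6.34% lower. With cells of at least 1500 genes and 100000 counts, 26 Z-linked genes were lower, the autosomal median was -0.072, and ARHGEF28 (0.32) and ZFR (0.092) turned direction. With means of log2 values, 3 Z-linked genes were higher, the W-linked median was 1.46 and the autosomal one 0.027. The W-linked median was 2.07 with a pseudocount of 10 CPM, against 4.31 with the main settings (4.71, 3.42 and 0.61 on plates 4, 5 and 6). It was 4.61 with genes at 0 in male-like cells taken against the floor of 3 counts. This median is over the 8 measured W-linked genes other than HINTW. Of these, 5 were measured only through female-like cells, so it is given as a description. With median-of-ratios size factors the autosomal median was 0.067. Of 54 named genes past the fold, 2 had the opposite sign under at least 1 setting. Others kept their sign but fell short of the fold, and these were not counted. With cells of at least 1500 genes and 100000 counts, BIVM was at 0.32, SOD2 at 0.27 and DUSP6 at 0.13. UBE2R2 was then at -0.41 and SMAD2Z at -0.79. The sides were compared within plates, but no pairing by animal was possible because the labels give 1 group and tie no cell to an animal. Plates of 5 to 16 cells a side limit what the ratio of a sparse gene can show.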
